A study of Rattus norvegicus with 35 samples.

Results

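The urea cycle and amino acid breakdown genes of the liver were examined in primary rat hepatocytes, that is, liver cells isolated from rats and kept in culture. The gene set was a list of 46 genes, and its members on the array were the probe sets annotated to those genes and to no other gene. For 45 of the 46 genes a probe set was found, 53 probe sets in all out of 31099. Amdhd1, an enzyme of histidine breakdown, was not named by any probe set used and was not analysed here. All 45 genes passed the filter on low values, which kept 10490 of 14217 named genes, so no member was lost to it.

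Expression was read with Affymetrix rat genome arrays from labelled copies of the cells' RNA. The 35 arrays covered 12 groups, each exposed for 72 h through the culture medium. The control group received 0.1% dimethyl sulfoxide (DMSO). The 3 test compounds were the triazole fungicides myclobutanil, propiconazole and triadimefon, each at 10, 30 and 100 uM, and the positive controls were phenobarbital (PB) at 200 uM and pregnenolone carbonitrile (PCN) at 30 uM. Every group held 3 arrays, described by the submitters as biological replicates, except PCN with 2. Each array carried 1 of 3 codes, Rs256, Rs293 or Rs304, and PCN had no Rs256 array. The labels do not say what a code marks, do not give the sex, strain or age of the rats and do not say whether the treated cultures also contained DMSO.

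Amino acids that are not used for protein are broken down mainly in the liver. Their nitrogen is passed on by transaminases and glutamate dehydrogenase and made into urea, while the carbon skeletons enter energy metabolism, glucose synthesis or the synthesis of NAD, taurine and methyl donors. Several of these enzymes are controlled by glucocorticoids, glucagon and feeding, and many decline when hepatocytes are kept in culture.

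The deposited values are scores on a log-like scale with no stated base, and the array medians lay between -0.03 and 0.02. All values below are in normalized units, which are the deposited scores after the arrays had been brought to 1 common distribution. The control transcripts bioC, bioD and cre gave 0.468 normalized units per doubling, if they were present at the manufacturer's 5, 25 and 100 pM, with 0.423 to 0.506 over the arrays. Differences are given ± the standard error of the fit, with 3 arrays a group unless stated, and a gene was called where its Benjamini-Hochberg adjusted p from limma over all 10490 genes was under 0.05. Because the values come from bulk RNA, fewer cells of a type and less RNA per cell cannot be told apart.

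With propiconazole at 100 uM 8 of the 45 genes fell and 1 rose (12% of all genes were called). The genes that fell belonged to the urea cycle (Otc, Arg1) and to the breakdown of tyrosine (Fah), tryptophan (Kynu, Haao), glycine and methionine (Gnmt), proline (Prodh) and branched-chain amino acids (Bckdha). Aldh4a1, a later enzyme of proline breakdown, rose. With triadimefon at 100 uM Kynu and Glud1 fell and Aldh4a1 rose (1.83% of all genes were called), and no member was called with myclobutanil at 100 uM.

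Among all tested genes propiconazole at 100 uM called 5.6% lower and 6.37% higher, so the lower calls formed a larger share of the members (17.8%) and the higher calls a smaller one (2.22%). The median change of the members was -0.07, against 0.01 over all genes. With triadimefon at 100 uM 0.963% of all genes were called lower and 0.867% higher, against 4.44% and 2.22% of the members. For myclobutanil at 100 uM the share over all genes was 1.21%, and limma gave 8 members an unadjusted p under 0.05. The 3 comparisons share the same DMSO arrays, so their changes are not independent of one another.

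Arrays with the same Rs code deviated together, and with the code as a replicate block more members were called at 100 uM. Propiconazole then lowered 13 and raised 6 (13.6% and 15.7% of all genes), triadimefon lowered 10 and raised 4 (5.65% and 6.16%), and myclobutanil lowered 7 and raised 5 (4.87% and 5.05%). The 9 members called with propiconazole without the block were also called with it. On the values as deposited, whose spread differed between arrays, limma called 3 members with propiconazole (Otc, Kynu and Prodh) and 0 with triadimefon (4 at unadjusted p under 0.05), so Arg1, Fah, Haao, Gnmt, Bckdha and Aldh4a1 lost their propiconazole calls there. Without the Rs256, Rs293 or Rs304 arrays the propiconazole count was 14 (7 higher), 6 and 2, and the triadimefon count 1, 0 and 0. The share over all genes on the deposited values and without these arrays is not given here. Those counts are therefore not set against all genes.

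**Figure D1:**
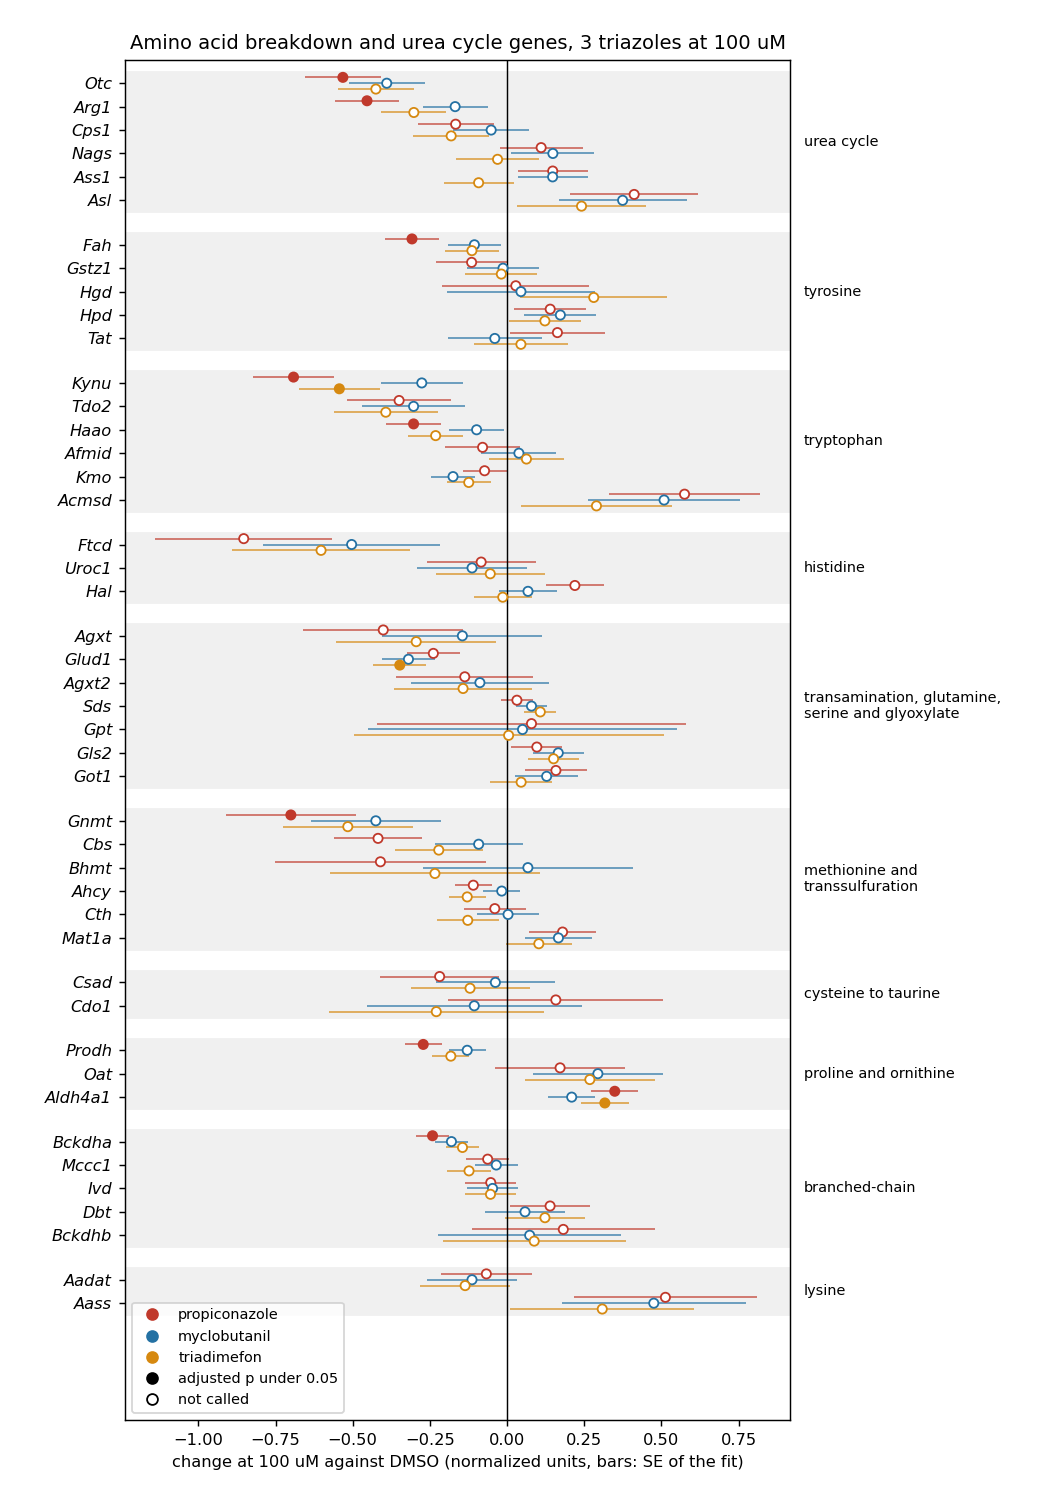
Change against DMSO at 100 uM for 45 genes, grouped by amino acid branch, in normalized units on the horizontal axis with bars for the standard error of the fit and filled points for adjusted p under 0.05. Propiconazole has 9 filled points, 8 of them left of 0, triadimefon has 3 and myclobutanil has 0.

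In the urea cycle, which turns ammonia into urea, the genes did not move together. Otc, ornithine transcarbamylase of the mitochondrial matrix (probe set 1369671_at), read 0.80, 1.0 and 0.95 in the DMSO arrays Rs256, Rs293 and Rs304. In the same order it read 0.10, 0.55 and 0.51 with propiconazole at 100 uM. Every propiconazole array was below every DMSO array, and the Rs256 array was the lowest. The change was -0.53 ± 0.12 (adjusted p = 0.00447). With myclobutanil the values were 0.43, 0.59 and 0.57 (change -0.39 ± 0.12, adjusted p = 0.146), and with triadimefon 0.29, 0.58 and 0.61 (change -0.42 ± 0.12, adjusted p = 0.0774). These also lay below the DMSO arrays, and both comparisons were called with the replicate block (adjusted p = 0.0237 and 0.0116).

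Arg1, the arginase that releases urea (1368266_at), was 3.63, 3.43 and 3.50 in DMSO and 3.01, 3.15 and 3.04 with propiconazole at 100 uM, with no overlap between the groups. It fell by 0.45 ± 0.11 (adjusted p = 0.00455). With triadimefon the change was -0.30 ± 0.11 (adjusted p = 0.162, and 0.00469 with the replicate block). With myclobutanil it was -0.17 ± 0.11 (adjusted p = 0.649).

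Asl, argininosuccinate lyase, which makes the arginine that arginase splits, lay on the other side of 0. Its probe set (1367754_s_at) read 2.39, 1.79 and 2.00 in DMSO and 2.60, 2.39 and 2.42 with propiconazole at 100 uM. The change of 0.41 ± 0.21 was not called (adjusted p = 0.225) but was with the replicate block (adjusted p = 3.95e-05). The block also called Asl higher with myclobutanil (change 0.37, adjusted p = 0.000843) and triadimefon (0.24, adjusted p = 0.0176). A second probe set of Asl gave 0.48 with propiconazole. Asl, like some other genes below, was named after its values had been seen.

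The other urea cycle genes were not called. The difference with propiconazole was -0.17 ± 0.12 for Cps1, carbamoyl phosphate synthetase, the entry enzyme, and -0.05 for its second probe set. It was 0.15 ± 0.11 for Ass1, argininosuccinate synthase, and 0.11 ± 0.13 for Nags, which makes the activator of Cps1.

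Of the 5 tyrosine genes 1, Fah, was called, with propiconazole at 100 uM. Fah, fumarylacetoacetate hydrolase, is the last enzyme of the pathway (1368092_at). Its DMSO values were 2.25, 2.14 and 2.18, and its propiconazole values at 100 uM were 1.81, 1.87 and 1.96. All 3 lay below the DMSO arrays, and Fah fell by 0.31 ± 0.09 (adjusted p = 0.0184). The changes with myclobutanil and triadimefon were both -0.11 ± 0.09. For the earlier enzymes Tat, Hpd, Hgd and Gstz1, in pathway order, the differences with propiconazole were 0.16, 0.14, 0.03 and -0.11. None of the 4 was called, although the block called Hgd with triadimefon (change 0.28, adjusted p = 0.0199).

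The tryptophan branch held the member with the lowest adjusted p, Kynu. Kynureninase splits kynurenine and 3-hydroxykynurenine on the way to NAD. Its probe set (1398282_at) read 1.47, 1.25 and 1.40 in DMSO and 0.32, 0.90 and 0.83 with propiconazole at 100 uM. The groups did not overlap, and the Rs256 array was far below the other 2. Kynu fell by 0.69 ± 0.13 (adjusted p = 0.000791).

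Kynu was also lower with triadimefon at 100 uM, at 0.63, 0.95 and 0.92, a change of -0.54 ± 0.13 (adjusted p = 0.0295). With myclobutanil the values 1.14, 1.15 and 1.0 were below all DMSO arrays, but the change of -0.28 ± 0.13 was not called (adjusted p = 0.467). Haao, 3-hydroxyanthranilate dioxygenase, acts next in the pathway (1368794_at). It read 1.57, 1.46 and 1.46 in DMSO and 1.10, 1.26 and 1.23 with propiconazole, without overlap, and fell by 0.30 ± 0.09 (adjusted p = 0.0235). With triadimefon its change was -0.23 ± 0.09, called with the replicate block (adjusted p = 0.0471) and not without (0.223).

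Acmsd, which diverts the product of Haao from NAD synthesis toward complete oxidation, had the opposite sign. It read 0.74, 0.22 and 0.32 in DMSO and 1.0, 1.07 and 0.94 with propiconazole at 100 uM, so the groups did not overlap. The change of 0.58 ± 0.24 was not called (adjusted p = 0.137) but was with the block (adjusted p = 0.000185). Tdo2, tryptophan dioxygenase, the first enzyme, differed from DMSO by -0.35 ± 0.17 with propiconazole, -0.39 ± 0.17 with triadimefon and -0.30 ± 0.17 with myclobutanil. All 3 changes of Tdo2 were called with the block (adjusted p = 0.00225, 0.00252 and 0.0201) and none without it. For Afmid and Kmo, the steps in between, the differences with propiconazole were -0.08 and -0.07.

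In the histidine branch none of the 3 genes was called. Ftcd, formiminotransferase cyclodeaminase, which passes the carbon of histidine to folate, had the lowest change of all members with each of the 3 triazoles at 100 uM. Its probe set (1387877_at) read 2.56, 1.91 and 1.89 in DMSO, 1.55, 1.05 and 1.20 with propiconazole, 2.03, 1.21 and 1.61 with myclobutanil and 1.60, 1.44 and 1.51 with triadimefon. The propiconazole and triadimefon arrays lay below all DMSO arrays, the myclobutanil arrays overlapped them, and the Rs256 array was well above the others in DMSO. The change was -0.85 ± 0.29 with propiconazole (adjusted p = 0.0526), -0.60 ± 0.29 with triadimefon (0.384) and -0.50 ± 0.29 with myclobutanil (0.61). With the replicate block all 3 were called (adjusted p = 2.54e-05, 0.00364 and 0.016). The difference with propiconazole was 0.22 ± 0.09 for Hal, histidase (adjusted p = 0.137, and 7.43e-05 with the block), and -0.08 ± 0.18 for Uroc1, urocanase.

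Among the 7 genes of transamination and of glutamine, serine and glyoxylate breakdown, Glud1 was called with triadimefon. Glud1, glutamate dehydrogenase, frees ammonia from glutamate in mitochondria (1387878_at). In DMSO it read 2.63, 2.69 and 2.80, and with triadimefon at 100 uM 2.37, 2.35 and 2.37. It fell by 0.35 ± 0.09 (adjusted p = 0.0326). With myclobutanil the values were 2.37, 2.44 and 2.36 (change -0.32 ± 0.09, adjusted p = 0.0678), and with propiconazole 2.33, 2.61 and 2.47 (change -0.24 ± 0.09, adjusted p = 0.0701). None of these 9 arrays reached the lowest DMSO array, and the block called both (adjusted p = 0.00455 and 0.0122). A second probe set of Glud1 had a change of -0.43 with triadimefon, which was not called (adjusted p = 0.0514 over 14235 probe sets), and fell by 0.43 with propiconazole (0.0133). The probe sets of this gene thus differed on both calls.

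Glud1 was below its DMSO mean in every one of the 11 treated groups, with group means from 2.36 to 2.60 against 2.71. The 11 comparisons use the same 3 DMSO arrays, so this is not 11 independent observations. Of the 45 members 17 had all 11 treated means below the DMSO mean and 3 (Aldh4a1, Gls2 and Sds) had all above it, against 10.8% and 9.89% of all genes. Sds lay near the array median, with treated means from -0.0204 to 0.0854 against -0.0223 in DMSO. So did Kmo, among those below, with 0.0048 to 0.1374 against 0.1797.

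The alanine, aspartate and glyoxylate transaminases Gpt, Got1, Agxt and Agxt2 had differences of 0.08, 0.16, -0.40 and -0.14 with propiconazole. Agxt and Got1 were called with the block only (adjusted p = 0.000276 and 0.00629). For Gls2, liver glutaminase, and Sds, serine dehydratase, they were 0.10 and 0.03. The standard error was 0.50 for Gpt, the largest of the members, and its Rs256 arrays stood apart as described below.

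Methionine breakdown runs through the methyl donor S-adenosylmethionine to homocysteine and, by transsulfuration, to cysteine. Gnmt, glycine N-methyltransferase, consumes S-adenosylmethionine (1387672_at). It read 2.50, 1.95 and 1.94 in DMSO and 1.49, 1.40 and 1.40 with propiconazole at 100 uM, without overlap. Gnmt fell by 0.70 ± 0.21 (adjusted p = 0.0281). This call was lost in 7 of 9 settings that left out arrays, with changes between -0.79 and -0.51 over all settings, and held with the block (adjusted p = 0.000324). With triadimefon Gnmt read 1.59, 1.82 and 1.43 (change -0.52 ± 0.21, adjusted p = 0.274), and with myclobutanil 1.98, 1.54 and 1.59 (change -0.43 ± 0.21, adjusted p = 0.50). With the block both were called (adjusted p = 0.0134 and 0.0479).

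Cbs, cystathionine beta-synthase, commits homocysteine to cysteine (1387178_a_at). It read 1.41, 1.16 and 1.17 in DMSO and 0.84, 0.94 and 0.70 with propiconazole, all below DMSO. The change of -0.42 ± 0.14 was not called (adjusted p = 0.0564) but was with the block (0.000189). Mat1a, which makes S-adenosylmethionine (1371031_at), read 1.87, 1.71 and 1.87 in DMSO and 1.77, 2.23 and 1.99 with propiconazole. The groups overlapped, and its change was 0.18 ± 0.11. For Bhmt, which returns homocysteine to methionine, the difference was -0.41 ± 0.34, for Ahcy, which makes homocysteine, -0.11 ± 0.06 and for Cth, which releases cysteine, -0.04 ± 0.10. None of the 3 was called.

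Cysteine is turned into taurine by Cdo1 and Csad, and neither was called. Csad (1398286_at) read 1.44, 1.76 and 1.72 in DMSO and 0.94, 1.79 and 1.54 with propiconazole, so the groups overlapped and the Rs256 array was the lowest in both. Its change was -0.22 ± 0.19, and that of Cdo1 was 0.16 ± 0.35.

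In proline breakdown propiconazole at 100 uM gave calls in both directions. Prodh, proline dehydrogenase, the first step (1372920_at), read 0.73, 0.60 and 0.76 in DMSO and 0.34, 0.45 and 0.49 with propiconazole. The groups did not overlap, and Prodh fell by 0.27 ± 0.06 (adjusted p = 0.00288). A second probe set of Prodh (1391371_at) failed the filter on low values and was not tested. Aldh4a1 oxidizes the semialdehyde made by Prodh and by Oat to glutamate (1372277_at). It read 1.15, 1.25 and 1.24 in DMSO, 1.50, 1.73 and 1.45 with propiconazole and 1.52, 1.61 and 1.47 with triadimefon.

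All 6 of those treated arrays were above all DMSO arrays. Aldh4a1 rose by 0.35 ± 0.08 with propiconazole (adjusted p = 0.00301) and by 0.32 ± 0.08 with triadimefon (adjusted p = 0.0289). With myclobutanil it read 1.59, 1.43 and 1.25 (change 0.21 ± 0.08, adjusted p = 0.251). Oat, ornithine aminotransferase, differed from DMSO by 0.17 with propiconazole, 0.29 with myclobutanil and 0.27 with triadimefon, the last pair called with the block (adjusted p = 0.00602 and 0.00964).

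In the branched-chain branch Bckdha was called and the other 4 genes were not. Bckdha is a subunit of the mitochondrial complex that decarboxylates the keto acids of leucine, isoleucine and valine (1370897_at). It read 1.24, 1.27 and 1.21 in DMSO and 1.0, 1.06 and 0.93 with propiconazole, and fell by 0.24 ± 0.05 (adjusted p = 0.0027). The myclobutanil values 1.15, 0.99 and 1.03 and the triadimefon values 1.12, 1.15 and 1.01 were also below DMSO, with changes of -0.18 (adjusted p = 0.11, and 0.0229 with the block) and -0.14 (0.189, and 0.0648 with the block). Bckdhb and Dbt, which code for other subunits of the complex, had differences of 0.18 ± 0.30 and 0.14 ± 0.13 with propiconazole. For Ivd and Mccc1, enzymes of leucine breakdown, they were -0.05 and -0.06. A second probe set of Bckdha (1380557_at) failed the filter on low values and was not tested.

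For lysine, Aass, the enzyme of the first 2 steps (1377375_at), read 1.15, 0.60 and 0.57 in DMSO and 1.30, 1.39 and 1.17 with propiconazole. The groups did not overlap. The change of 0.51 ± 0.30 was not called (adjusted p = 0.312) but was with the block (0.000704), and the block also called it with myclobutanil (change 0.48, adjusted p = 0.00544). For Aadat, a transaminase further down the pathway, the difference was -0.07 ± 0.15.

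**Figure D2:**
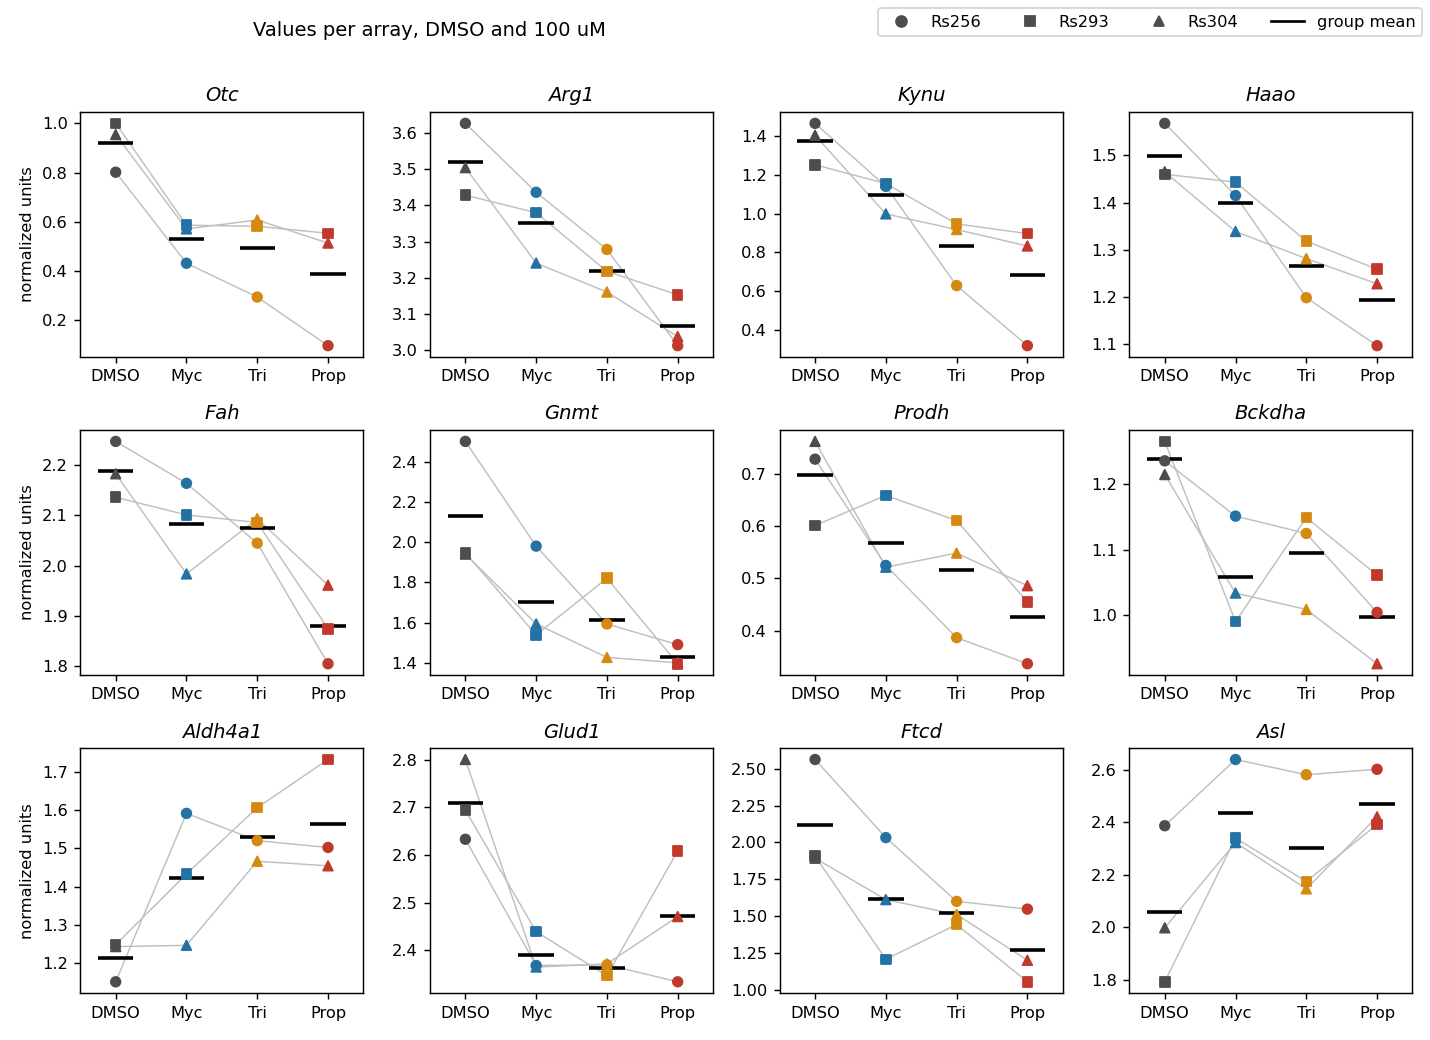
Values of 12 genes in normalized units in each array of DMSO and of 100 uM myclobutanil (Myc), triadimefon (Tri) and propiconazole (Prop), with symbols for the Rs codes, grey lines joining arrays of a code and black bars for group means. Otc and Kynu are lowest in the Rs256 array with propiconazole (0.10 and 0.32), and Aldh4a1 is above all DMSO arrays with propiconazole and triadimefon.

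Counted by array, 13 members had every propiconazole 100 uM array below every DMSO array and 5 had every one above, against 12.3% and 14.4% of all genes. With triadimefon the counts were 13 and 3 (8.4% and 11.8% of all genes) and with myclobutanil 7 and 1 (6.08% and 6.97%). Compared within each Rs code, 19 of 45 members were lower with propiconazole at 100 uM than with DMSO in all 3 codes and 8 were higher in all 3 (22.5% and 26.2% of all genes). The counts were 22 and 11 with triadimefon (20.5% and 28.2%) and 13 and 11 with myclobutanil (18.8% and 21.3%). At 30 and 10 uM, where no member was called, 26 and 21 were lower in all codes with triadimefon (21.4% and 19.3% of all genes). With myclobutanil 20 and 15 were (13.3% and 13.1%), and with propiconazole 14 and 17 (17.7% and 19.6%). With PB 14 were lower (11.9%), and with PCN, in its 2 codes, 10 (33.5%). The count passed that at 100 uM for triadimefon at 30 uM and for myclobutanil at both lower doses, and not for propiconazole. All these comparisons use the same DMSO arrays. By place in the cell, 3 of 17 mitochondrial members fell and 1 rose with propiconazole at 100 uM. Outside the mitochondrion 5 of the 27 tested members fell and 0 rose. Over all genes 5.6% were called lower and 6.37% higher, and the 2 classes were not compared by a test. Agxt, whose enzyme is placed in peroxisomes or mitochondria, was put in neither class and was not called.

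Promoter sequence from RefSeq (assembly GRCr8, 250 bases before to 50 after the annotated start) was found for 37 of the members. It is shown for Kynu, Haao and Gnmt, which fell with propiconazole, and for Aldh4a1, which rose. Capitals mark matches on either strand to TATAAA, to CCAAT, to the nuclear receptor half-site AGGTCA, to the glucocorticoid receptor half-site TGTTCT and to TGACG, a core of the cyclic AMP element. These motifs were chosen with the results known. The promoters of Otc and Fah, which also fell, held no match and are not printed.
Kynu (chr3:48188036-48188335, plus strand): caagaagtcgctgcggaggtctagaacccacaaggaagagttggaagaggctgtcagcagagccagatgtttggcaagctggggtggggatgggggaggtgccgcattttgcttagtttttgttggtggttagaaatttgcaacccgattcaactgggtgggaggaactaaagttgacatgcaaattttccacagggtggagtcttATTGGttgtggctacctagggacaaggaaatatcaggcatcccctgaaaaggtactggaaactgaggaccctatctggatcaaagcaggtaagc
Haao (chr6:16598075-16598374, plus strand): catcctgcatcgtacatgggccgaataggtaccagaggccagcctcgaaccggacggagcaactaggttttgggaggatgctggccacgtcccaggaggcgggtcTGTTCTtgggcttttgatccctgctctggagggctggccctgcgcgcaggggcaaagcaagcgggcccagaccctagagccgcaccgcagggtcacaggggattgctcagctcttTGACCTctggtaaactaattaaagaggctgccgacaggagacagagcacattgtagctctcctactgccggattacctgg
Gnmt (chr9:21752032-21752331, plus strand): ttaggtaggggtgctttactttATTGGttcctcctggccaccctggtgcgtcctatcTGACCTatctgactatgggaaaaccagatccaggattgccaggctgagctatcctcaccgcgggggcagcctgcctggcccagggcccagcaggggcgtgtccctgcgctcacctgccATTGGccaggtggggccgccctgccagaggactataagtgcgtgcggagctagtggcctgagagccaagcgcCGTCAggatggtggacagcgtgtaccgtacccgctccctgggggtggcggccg
Aldh4a1 (chr5:157162939-157163238, plus strand): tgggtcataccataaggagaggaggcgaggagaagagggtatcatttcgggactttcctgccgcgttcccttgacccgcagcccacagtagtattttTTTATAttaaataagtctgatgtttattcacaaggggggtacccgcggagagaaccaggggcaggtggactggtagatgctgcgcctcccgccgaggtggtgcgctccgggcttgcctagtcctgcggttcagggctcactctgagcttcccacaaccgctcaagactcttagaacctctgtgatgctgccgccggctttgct

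A CCAAT match was present in Kynu and Gnmt, AGGTCA in Haao and Gnmt, TGTTCT in Haao, TGACG in Gnmt and TATAAA in Aldh4a1. Over the 37 members the shares with a match were 51.4% for CCAAT, 29.7% for AGGTCA, 13.5% for TGTTCT, 18.9% for TGACG and 16.2% for TATAAA. Over all 27457 promoters of the same length they were 37.7%, 15.7%, 20.1%, 22% and 14.3%. A match only says that these letters occur in the window.

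With dose, 7 members had a called slope over 10, 30 and 100 uM propiconazole, 6 falling and 1 rising (3.72% and 5.01% of all genes). Slopes are per 10-fold rise in dose and use no DMSO array. Kynu sloped by -0.57 ± 0.13 (adjusted p = 0.00596), with group means of 1.25, 1.17 and 0.68 at the 3 doses. Cbs sloped by -0.52 ± 0.14 (adjusted p = 0.0202), with means of 1.34, 1.29 and 0.83. In both genes the means at 10 and 30 uM lay close together and the 100 uM mean stood below.

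The other falling slopes were those of Otc (-0.47 ± 0.12, adjusted p = 0.0158), Arg1 (-0.34 ± 0.11, 0.04), Haao (-0.28 ± 0.09, 0.0453) and Bckdha (-0.26 ± 0.05, 0.00218). Mat1a rose with dose, by 0.39 ± 0.11 (adjusted p = 0.0207). Its means were 1.61, 1.69 and 2.00 with propiconazole against 1.82 in DMSO, so the lower doses lay below the control and the top dose above it. Myclobutanil and triadimefon gave Mat1a slopes of 0.34 and 0.37, which were not called.

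No member had a called slope with myclobutanil (0.248% of all genes, limma, 5 members at unadjusted p under 0.05) or triadimefon (0.0763%, 6 members). With the replicate block the counts were 20 for propiconazole (24.8% of all genes), 5 for myclobutanil (6.63%) and 1 for triadimefon (2.93%). The 5 were Aass, Acmsd, Asl, Mat1a and Oat, all rising, and the 1 was Hgd, rising. On the values as deposited 2 propiconazole slopes were called. Without the Rs256, Rs293 or Rs304 arrays 9, 4 and 0 were, the last with 11 members at unadjusted p under 0.05. These counts too are given without the share over all genes.

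**Figure D3:**
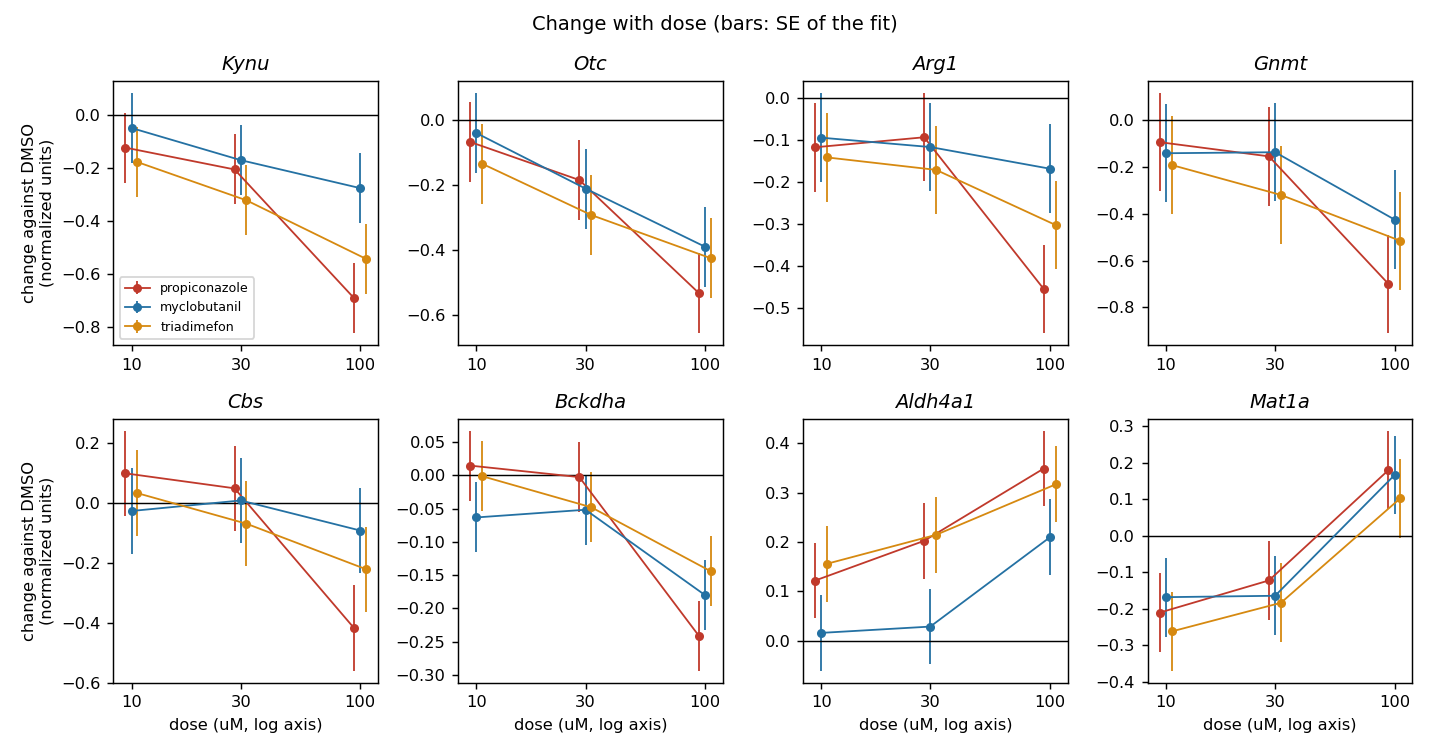
Change against DMSO in normalized units at 10, 30 and 100 uM (log axis) for 8 genes and 3 triazoles, with bars for the standard error of the fit. The means of Kynu and Otc go down with each triazole as the dose goes up, with the largest change for propiconazole at 100 uM, and those of Mat1a go from below 0 to above it.

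The 3 compounds share a triazole ring. Propiconazole carries a dioxolane ring and a dichlorophenyl group, myclobutanil a nitrile and a chlorophenyl group, and triadimefon a ketone and a chlorophenoxy group. Compared pairwise at matched doses, in 9 pairs, no member was called by limma, with p adjusted over all genes within a pair. At 100 uM 6 members had an unadjusted p under 0.05 between propiconazole and myclobutanil, 3 between propiconazole and triadimefon and 1 between triadimefon and myclobutanil. Over all genes 0.744%, 0.505% and 0% were called in these 3 pairs, and 0% in each pair at 30 and 10 uM, where at most 1 member had an unadjusted p under 0.05.

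The intervals show what such differences could be. Kynu differed by -0.42 between propiconazole and myclobutanil at 100 uM (95% interval -0.69 to -0.14, adjusted p = 0.183) and by -0.15 between propiconazole and triadimefon (-0.42 to 0.12). For Arg1 the difference from myclobutanil was -0.29 (-0.50 to -0.07, adjusted p = 0.299), and for Otc -0.14 (-0.39 to 0.11). Fah differed by -0.20 from myclobutanil (-0.38 to -0.02) and by -0.19 from triadimefon (-0.37 to -0.02). A p that misses the threshold does not show that the compounds acted alike.

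With the replicate block 5 members differed between propiconazole and myclobutanil at 100 uM (7.09% of all genes) and 1 between propiconazole and triadimefon (4.59%). Lower with propiconazole than with myclobutanil were Arg1 (adjusted p = 0.0129), Cbs (-0.33, 0.0113), Kynu (0.0475) and Agxt (-0.26, 0.0421). Hal was higher with propiconazole than with myclobutanil (0.15, adjusted p = 0.0146) and than with triadimefon (0.23, 0.000479). Hal read 0.74, 0.70 and 0.76 with propiconazole, 0.74, 0.50 and 0.51 with myclobutanil and 0.64, 0.43 and 0.43 with triadimefon. The Rs256 arrays of Hal thus lay between 0.64 and 0.74 in all 3 groups, and with myclobutanil and triadimefon the other 2 codes were lower.

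Below 100 uM and with the positive controls no member was called against DMSO by limma. Over all genes 0.0381% were called with 30 uM propiconazole, 0.00953% with 10 uM propiconazole, 0.00953% with 30 uM and 0% with 10 uM myclobutanil, 0.0286% with 30 uM and 0% with 10 uM triadimefon, 0.00953% with PB and 0.00953% with PCN. The members with an unadjusted p under 0.05 numbered 2, 1, 1, 0, 5, 2, 1 and 1 in that order. The block added calls only for propiconazole at 30 uM, with 4 members (2.62% of all genes). Aass (change 0.42), Asl (0.29) and Gpt (0.34) were higher there, and Glud1 was lower (-0.27, adjusted p = 0.036). As deposited, the Rs293 array of this group stood apart, with Hpd at 5.22 against 4.02 in Rs256 and 2.78 in Rs304. Deposited Gpt values in Rs256, Rs293 and Rs304 were 2.61, 1.85 and 1.15, against 2.18, 0.81 and 1.01 with DMSO. The weight of this array in the block calls was not tested, and it also enters the propiconazole slopes.

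PB, which activates the nuclear receptor CAR, gave changes between -0.22 for Tdo2 and 0.28 for Aass. PCN, which activates the receptor PXR in rodents, gave changes between -0.43 for Cdo1 and 0.15 for Afmid over 2 arrays. The PCN group lacks the Rs256 code, in which many members were high, while DMSO has it. Cdo1 is such a member, with all Rs256 arrays above all other arrays. As deposited, Cdo1 read 2.03 with PCN against 1.89 with DMSO in Rs293, and 1.83 against 2.18 in Rs304. The median change of the members with PCN was -0.08 without the block and -0.04 with it, and the number below 0 was 38 and 28 of 45.

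The level of many members differed by Rs code. In the 11 groups with all 3 codes, the Rs256 array was above the mean of the other 2 in every group for 17 of the 45 members, and below it in every group for 1, Csad. For 5 members (Gpt, Cdo1, Agxt, Agxt2 and Oat) all Rs256 arrays were above all other arrays. Gpt, alanine aminotransferase, ranged from 1.96 to 2.48 in Rs256, from 0.76 to 1.37 in Rs293 and from 1.03 to 1.29 in Rs304. For Csad the ranges were 0.94 to 1.44, 1.45 to 1.79 and 1.54 to 1.78.

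The median difference of Rs256 from the mean of Rs293 and Rs304 was larger in size than the range of the group means for 18 of the 45 members. A median and a range are unlike measures, and this one does not show how Rs293 and Rs304 differed. For Gpt it was 1.18 against 0.34 and for Agxt2 0.52 against 0.15. For Kynu it was 0.14 against 0.69 and for Otc -0.11 against 0.53. The codes still differed within groups for both genes. Kynu went down to 0.32 in Rs256 and to 0.90 and 0.83 in Rs293 and Rs304. Otc went down to 0.10 in Rs256 and to 0.55 and 0.51 in Rs293 and Rs304. The codes are not compared further because the labels do not say what they mark.

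**Figure D4:**
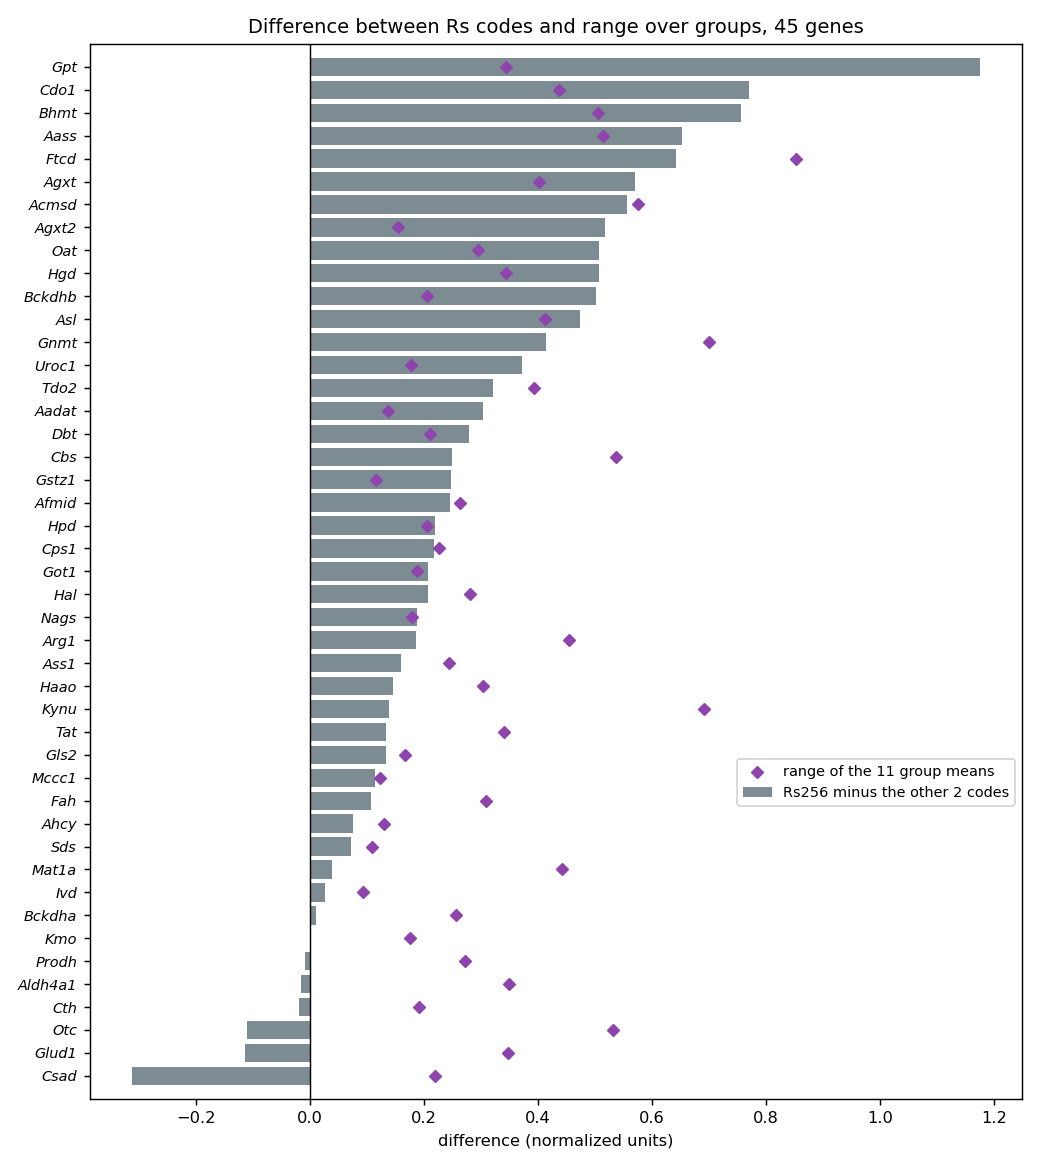
For 45 genes, bars give the median over 11 groups of the Rs256 array minus the mean of the Rs293 and Rs304 arrays and diamonds give the range of the group means, both in normalized units. The bar passes the diamond for 18 genes, among them Gpt (1.18 against 0.34), while Kynu and Otc have short bars and distant diamonds.

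Of 94 further genes of amino acid metabolism and transport, 78 were tested and 23 were called with propiconazole at 100 uM, 8 higher and 15 lower (6.37% and 5.6% of all genes). The list was chosen with earlier results of these data known. In the branched-chain and propionate group 7 of 19 tested genes fell and 1 rose. Acat1, the mitochondrial thiolase of isoleucine and ketone metabolism, read 1.66, 1.66 and 1.65 in DMSO and 1.06, 0.71 and 0.94 with propiconazole, a change of -0.76 ± 0.11 (adjusted p = 2.65e-05). Auh, of leucine breakdown, changed by -0.36 and Hsd17b10, of isoleucine breakdown, by -0.41.

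Baat, which joins bile acids to taurine or glycine, fell most, from 1.84, 2.02 and 2.37 to 0.61, 1.06 and 0.99 (change -1.19 ± 0.18, adjusted p = 5.38e-05). Qprt, the enzyme after Haao on the path to NAD, read 1.66, 2.13 and 2.05 in DMSO and 0.66, 1.32 and 1.22 with propiconazole (change -0.88 ± 0.20, adjusted p = 0.0046). Hao1, glycolate oxidase, which makes glyoxylate, changed by -0.95 ± 0.22 (adjusted p = 0.00455), Gpt2, the mitochondrial alanine transaminase, by -0.53, and Suox, sulfite oxidase, by -0.31.

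Gcat, which splits the threonine product aminoketobutyrate, rose from 0.52, 0.58 and 0.76 to 1.29, 1.51 and 1.41 (change 0.78 ± 0.08, adjusted p = 3.37e-07). Aspg, an asparaginase, rose by 0.41. Of the amino acid transporters 5 of 12 tested rose (Slc3a2, Slc43a1, Slc7a5, Slc38a7 and Slc7a2) and 0 fell. Triadimefon at 100 uM called 4 of the 78 (Acat1, Baat and Gpt2 lower, Gcat higher), and myclobutanil 3 (Acat1 and Baat lower, Gcat higher). Over all genes triadimefon called 0.963% lower and 0.867% higher, and myclobutanil 0.572% and 0.639%. With the block the propiconazole counts were 20 higher and 28 lower (15.7% and 13.6% of all genes).

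Hepatocyte markers were high in all arrays, with list means over 9 genes of 3.43 to 3.59 in DMSO and 3.35 to 3.55 with propiconazole at 100 uM. Of the 9, Ahsg (-0.33 ± 0.06) and Apoh (-0.31 ± 0.06), both plasma proteins, fell with propiconazole, and both also fell with triadimefon (-0.24 and -0.28). With propiconazole 7 of the 9 changes were below 0 and 2 above, with the highest for Apoa1 (0.22). The block called 2 of these markers lower and 1 higher. Of 5 tested macrophage markers 1 rose with propiconazole, Cd68 (0.80 ± 0.20), with list means over 9 genes of -0.00279 to 0.17 in DMSO and 0.11 to 0.24 with propiconazole. Of the 5 changes 2 were above 0 and 3 below, with the lowest for C1qb (-0.05). The block called 2 macrophage markers higher. Of the 6 tested stellate cell and 3 tested cholangiocyte markers none was called with propiconazole (the block called 2 stellate markers higher), and their list means were -0.14 to -0.04 and 0.30 to 0.48 in DMSO and -0.10 to 0.01 and 0.29 to 0.40 with propiconazole. The 6 endothelial markers on the array all failed the filter, with list means of -0.24 to -0.19 in DMSO and -0.23 to -0.15 with propiconazole. The part of these markers in the member changes was not tested.

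Of 10 periportal genes, the liver zone rich in urea cycle enzymes, Arg1 and Cyp2f4 (-0.40) fell with propiconazole. Of 5 tested pericentral genes 0 were called by limma (3 with the block). The periportal genes Cps1, Ass1, Asl, Arg1, Hal, Sds and Gls2 and the pericentral gene Oat are themselves members, so the zone counts partly repeat the member results. Of 10 regulators of amino acid metabolism the glucagon receptor gene Gcgr fell (-0.19 ± 0.06, adjusted p = 0.0308). The part that the zone genes outside the member list and the regulators had in the member changes was not tested.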

How the data were processed

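RNA from 35 arrays was used in 12 groups, taken from the array titles. The deposited values are a score on a log-like scale. How the authors summarised, corrected and normalized the probes, and the log base, are not given in the sources used here. The table held 31099 probe sets, 57 of them controls. By the platform annotation, which can be old, 20826 named 1 gene, 436 several and 9780 none, and 20758 of the first kind matched the reference table by gene identifier.

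Array SDs ran from 0.646 to 0.941, so the arrays were quantile normalized (limma 3.58.1, R 4.3.3). For each gene the probe set with the highest mean was used. Genes above the array median in at least 2 arrays were tested. One limma model with a mean per group was fitted to all 35 arrays (23 residual degrees of freedom) and 23 comparisons were made, two-sided, with Benjamini-Hochberg adjustment within each: 11 against DMSO, 9 between triazoles at matched doses and 3 dose slopes. The code was tested on simulated data.

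Members, gene lists, the normalization and the named genes were chosen with earlier results of these data known. Values per array are given for members called at 100 uM, in a triazole pair or in a dose slope, and for the member of each branch with the largest test statistic with propiconazole at 100 uM. Up to 10 further amino acid genes per comparison are named in order of adjusted p. Members named outside this rule, such as Asl, Acmsd, Tdo2, Agxt and Hal, were chosen after their values were seen.

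Between arrays of the same Rs code, deviations from group means correlated by 0.277 to 0.952 over the 59 pairs of arrays from compared groups. For arrays of different codes the median was -0.355. Deviations within a group sum to 0, so a negative value there is partly built in. Over all 187 pairs of arrays of the same code, also from groups not compared, the lowest was 0.0371. On this ground the replicate block took the codes to pair the arrays, although the labels do not say what they mark. The main fit, which gave all calls stated without the block, ignored the codes. The number of arrays limits the precision. Alternatives were the replicate block, the values as deposited, median centring, the mean of probe sets, no filter, only the groups compared, and leaving out arrays.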

Additional observations from a re-analysis of the deposited data

Results flagged for a closer look

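These differences between triazoles at 100 uM passed a test of the difference itself. With the Rs code as a replicate block, propiconazole minus myclobutanil was -0.26 for Agxt, -0.29 for Arg1, -0.33 for Cbs, -0.42 for Kynu and 0.15 for Hal, and propiconazole minus triadimefon was 0.23 for Hal. None of the 6 passed without the block.

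Among the other amino acid genes, propiconazole minus myclobutanil passed without the block for Auh, an enzyme of leucine breakdown (-0.28, adjusted p = 0.0125), Ddc, aromatic amino acid decarboxylase (-0.67, adjusted p = 0.0144), and Gamt, which makes creatine (-0.43, adjusted p = 0.048), by limma over all genes. On the values as deposited none of these 3 did.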

How the results depend on the processing

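With the Rs code as a replicate block, the number of members called went from 9 to 19 for propiconazole at 100 uM, from 3 to 14 for triadimefon and from 0 to 12 for myclobutanil. It went from 0 to 4 for propiconazole at 30 uM, from 0 to 5 and 0 to 1 for propiconazole against myclobutanil and triadimefon at 100 uM, and from 7 to 20, 0 to 5 and 0 to 1 for the dose slopes of propiconazole, myclobutanil and triadimefon. It changed no other count. For propiconazole at 100 uM the count was 3 on the values as deposited, 3 with median centring and 5 with only the groups compared, for triadimefon 0 under each of these, and for the propiconazole slope 2, 1 and 2. The cause was not tested.

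Leaving out arrays gave 2 to 14 for propiconazole at 100 uM (14 without Rs256, 6 without Rs293, 2 without Rs304, and 6 without either the DMSO or the propiconazole Rs256 array) and 0 to 1 for triadimefon. It gave 0 to 9 for the propiconazole slope (4 without Rs293, 0 without Rs304), 0 to 2 for myclobutanil at 100 uM (2 without Rs256), 0 to 1 for its slope, and 0 to 1 for propiconazole against myclobutanil and against triadimefon at 100 uM (1 without Rs256). With 1 array left out, the single-array groups of PCN are assumed to vary like the others. The mean of probe sets and no filter gave 10 and 9 for propiconazole at 100 uM. Apart from the main fit and the block, the settings of this section are given without the share over all genes. Their counts therefore do not tell the members from genes in general. Over the 15 named members at 100 uM, 574 of the alternative values kept their sign and their side of the threshold, 73 lost a call and 21 gained one. The other 7, all when arrays were left out and none of them called, changed sign. Leaving out arrays gave Csad -0.40 to 0.0215 with propiconazole (1 above 0), -0.14 to 0.10 with myclobutanil (3 above 0) and -0.25 to 0.11 with triadimefon (2 above 0), and Cbs -0.23 to 0.0093 with myclobutanil (1 above 0). Otc kept its propiconazole call in 9 of 9 settings that left out arrays, Kynu in 8, Fah in 5, Haao in 4 and Gnmt in 2. For Arg1, Prodh, Bckdha and Aldh4a1 this number is not given here. Without Rs304 only 2 members were called, Otc among them, so most of these genes lost their call there. Values near the array median and groups of 3 arrays limit what could be called.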
